A study of Homo sapiens with 24 samples.

Results

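10 genes of the BCL2 family were followed in K562 cells in which the transcription factor GATA1 had been lowered by RNA interference. They were the rows of the deposited count table named BCL2L1, MCL1, BCL2, BAX, BAK1, BAD, BID, BCL2L11, BBC3 and PMAIP1, 10 of 27311 gene symbols, listed by name, with no measured value in the rule, when earlier results of these data were known. BCL2L1 was included as a known target of GATA1. K562 is a human erythroleukemia line from a patient with chronic myeloid leukemia; it carries the BCR-ABL1 fusion and expresses embryonic and fetal globins. A batch of 200000 cells was transfected with an Ambion Silencer Select siRNA and grown for 48 hours, and 10000 cells were lysed for 3′ RNA sequencing by BRB-seq, in which each read is taken near the 3′ end of a polyadenylated transcript. There were 6 groups of 4 libraries. They received siGATA1-1 at 25 nM, siGATA1-2 at 6.25 nM, the non-targeting siNC-1 at 25 nM, siNC-1 at 6.25 nM, the non-targeting siNC-2 at 25 nM, or siNC-2 at 6.25 nM. Each GATA1 siRNA was used at 1 dose, so siRNA and dose cannot be told apart for it. Each was compared with the 8 control libraries of its own dose. Libraries of both GATA1 siRNAs and the controls at 25 nM are numbered 1 to 4, and the controls at 6.25 nM are numbered 5 to 8. In the controls, dose and replicate set therefore cannot be told apart, and siGATA1-2 was compared with controls of other numbers. No untransfected cells were analysed here, so every library came from transfected cells of 1 cell line. The study calls the libraries of a group biological replicates. Where separate cultures are not stated, p-values measure the spread between these libraries.

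Proteins of the BCL2 family decide whether the outer mitochondrial membrane stays intact. The survival members BCL-XL (encoded by BCL2L1), MCL1 and BCL2 bind and hold the pore-forming effectors BAX and BAK (BAK1) and the BH3-only proteins. The BH3-only members BAD, BID, BIM (BCL2L11), PUMA (BBC3) and NOXA (PMAIP1) respond to stress and either engage the effectors or occupy the survival members. When BAX or BAK opens the membrane, cytochrome c leaves the mitochondrion and activates caspases through APAF1. In the erythroid lineage BCL-XL is the survival member known to keep maturing cells alive, and GATA1 and STAT5 are known to act on its gene. MCL1 and NOXA proteins are short-lived and BAD is controlled by phosphorylation, so protein levels and activity can differ from RNA.

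The libraries were shallow, with 88290 to 473098 counts each. GATA1 itself was lower in every library of the siRNAs against it, at 242 to 308 CPM (counts scaled to the same total of tested genes in every library, after TMM normalization) with siGATA1-1 and 165 to 333 CPM with siGATA1-2, against 389 to 717 CPM in the 16 control libraries. The difference in mean was 289 against 569 CPM and 244 against 543 CPM (exact two-sided permutation test over 4 and 8 libraries, p = 0.00404 for each, the smallest the test can give). All 10 K562 markers were tested. In the mean effect of the siRNAs, which is the mean of both comparisons, 8 of them were lower at an adjusted p under 0.05 in edgeR. Of all tested genes 4.48% passed this threshold in either direction. The markers include GATA1, the target of the siRNAs, and KLF1, a gene known to be activated by GATA1. Lymphoid, monocyte and fibroblast markers summed to 61, 5 and 100 counts over all libraries, and 0 of these 10 genes passed the filter. In bulk RNA, fewer cells of a type and less RNA per cell cannot be told apart.

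The promoter of BCL2L1 is shown beside that of KLF1, an erythroid transcription factor gene known to be activated by GATA1. GATA1 binds short DNA words. KLF1 was called lower with both siRNAs and no member was. Whether the words go with a response was not tested. RefSeq windows (GRCh38.p14) reach from 250 bases before to 50 bases after a start site. The count table was made on hg19, so these coordinates are not those of the table. Capitals mark the word AGATAA or its variants, which are AGATAG or TGATAA or TGATAG, searched on both strands. The BCL2L1 stretch, chr20:31723990-31724213, minus strand, stops 26 bases before its start site where GENCODE places an exon. BCL2L1 has 2 windows, 1 for each start site, and the other one is not printed. The KLF1 stretch is chr19:12887202-12887451, minus strand.
BCL2L1: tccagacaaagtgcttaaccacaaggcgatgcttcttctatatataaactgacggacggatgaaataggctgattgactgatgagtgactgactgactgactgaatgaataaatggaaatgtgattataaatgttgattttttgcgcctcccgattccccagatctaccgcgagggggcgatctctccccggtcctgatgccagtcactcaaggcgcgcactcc
KLF1: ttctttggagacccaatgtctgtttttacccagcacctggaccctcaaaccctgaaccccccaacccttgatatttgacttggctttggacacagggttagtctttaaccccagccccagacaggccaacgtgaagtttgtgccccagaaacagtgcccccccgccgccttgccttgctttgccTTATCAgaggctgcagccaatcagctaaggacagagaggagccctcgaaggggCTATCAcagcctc
KLF1 held 2 of the words, read on the opposite strand, at bases -66 to -61 and -13 to -8 from its start. Of the members 9 of 10 had a RefSeq window (all but MCL1), 15 windows in all because some genes have several starts. BID had 5 of them, BAD 2 and BCL2L1 2. Windows of BID and of BAD overlap, so the same site can be counted more than once. These 15 windows held 0 of the 4 words, which occurred in 25.0% of all 35116 windows. The windows of GATA1 (the target of the siRNAs), of CYCS (called lower) and of PIM2 (called higher) also held 0. Of these 4 called genes (KLF1 included) only KLF1 held the words. The windows of other called genes were not looked up. CCACCC, the core of sites for Krüppel-like factors, was found on either strand in 7 of the 15 windows, those of 4 members, and in 34.3% of all windows. GGGCGG, the GC box, was found in 11 of the 15, those of 7 members, and in 45.0% of all. For BCL2L1 both CCACCC and GGGCGG lay in the window that is not printed. The GC content of the 15 windows was 48% to 78%, where the median of all windows was 58.7%. Its part in these shares was not tested. These letters describe the windows alone. Elements outside them, such as introns and distal enhancers, were not searched.

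The family was detected at low depth. The 10 genes had 5119 counts over 24 libraries, 0.0807% of all counts. BCL2L1 had 1489 counts in all and MCL1 969, followed by BBC3 (667), BID (591), BAD (378), BAX (339), BCL2L11 (266), PMAIP1 (245), BAK1 (155) and BCL2 (20). These totals show how precisely each gene was measured; they are not divided by length. Of the members 9 passed the filter on low counts and BCL2 did not. A count of 3 was worth 6.51 to 38.9 CPM, depending on the library.

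Lowering GATA1 gave 0 called members in any comparison with the controls. A gene is called when its p-value in edgeR's quasi-likelihood test, adjusted by Benjamini-Hochberg over all 6738 tested genes, is under 0.05. With siGATA1-1, 0 of 9 members were called, where 0.727% of all tested genes were, and BAK1 and PMAIP1 had an unadjusted p under 0.05, as did 6.38% of all genes. With siGATA1-2, 0 of 9 were called, where 3.03% of all genes were, and BAD had an unadjusted p under 0.05, as did 15.8% of all genes. In the mean effect, 0 of 9 were called against 4.48% of all genes, and 0 had an unadjusted p under 0.05, against 16.6%. For 0 of 9 members did the ranges of CPM fail to overlap with either siRNA, where they did so for 1.81% of all genes with siGATA1-1 and 2.29% with siGATA1-2. DESeq2 and limma voom also called 0 members in each of these comparisons, with 2, 1 and 0 members at an unadjusted p under 0.05 in DESeq2 and 2, 0 and 0 in limma voom. With siGATA1-1, however, DESeq2 gave 3 of the 9 no adjusted p (BAK1, PMAIP1 and BCL2L11), so these could not be called there. The median log2 fold change of the 9 members was 0.22 with siGATA1-1, 0.09 with siGATA1-2 and 0.16 in the mean effect, where the medians of all tested genes were 0.01, -0.01 and 0.00. With so few called genes in all, 0 of 9 is near the background. The intervals of the low-count members were wide, and a change within them was not detectable at this depth.

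**Figure D1:**
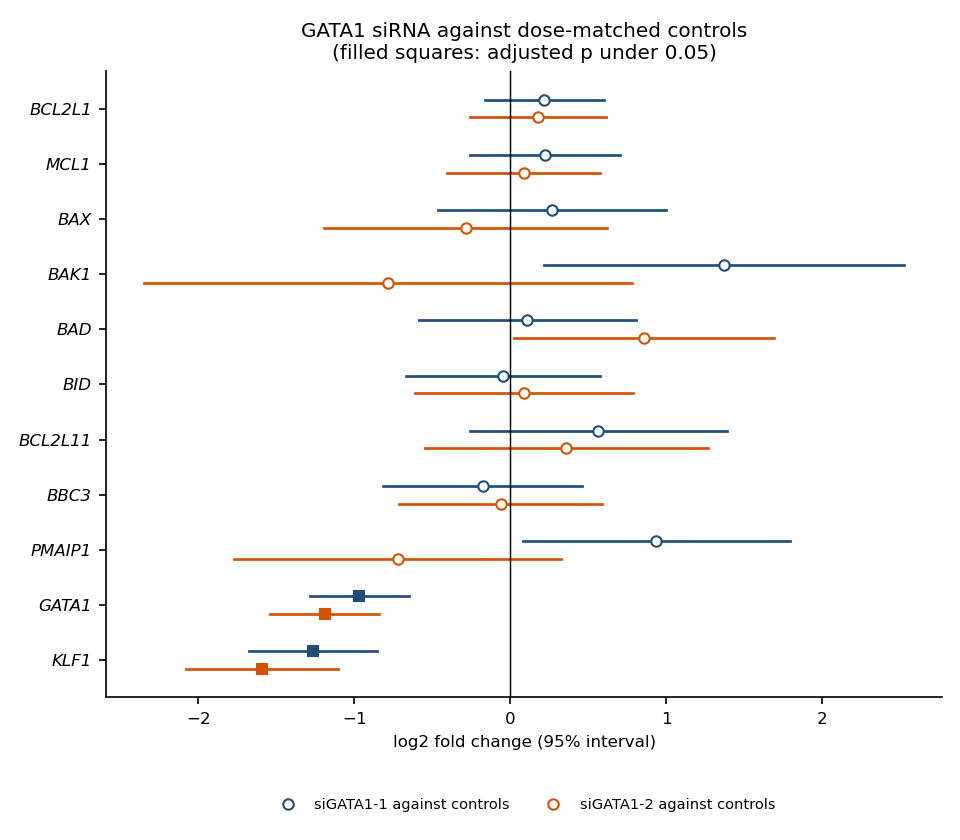
Log2 fold change (horizontal, with 95% intervals) of the 9 tested members, GATA1 and KLF1 with siGATA1-1 at 25 nM (blue) and siGATA1-2 at 6.25 nM (orange), each against its dose-matched controls; filled squares mark genes with an adjusted p under 0.05. GATA1 (-0.97 and -1.19) and KLF1 (-1.27 and -1.59) are filled on the left, and all members have open circles.

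BCL2L1, which encodes the survival protein BCL-XL, had the most counts of the members, and its mean was not below that of its controls with either siRNA. With siGATA1-1 it stood at 273, 246, 307 and 425 CPM in replicates 1 to 4. With siNC-1 at 25 nM it was 299.8, 294, 243 and 213 CPM, and with siNC-2 at 25 nM 233, 346, 288 and 229 CPM. Replicate 4 of siGATA1-1 was the highest of all 24 libraries, and the other 3 lay inside the range of the controls. With siGATA1-2 the values were 222, 203, 208 and 238 CPM. At 6.25 nM, siNC-1 gave 295, 212, 113 and 194 CPM and siNC-2 gave 181, 124, 223 and 209 CPM. All 4 siGATA1-2 libraries lay inside the range of their controls. The log2 fold change was 0.22 (SE 0.19, adjusted p = 0.973) with siGATA1-1 and 0.18 (SE 0.22, adjusted p = 0.757) with siGATA1-2 in edgeR. In the mean effect it was 0.20 (SE 0.15, adjusted p = 0.543), a change of 14.8% with a 95% interval from -6.08% to 40.3%. Over the same libraries GATA1 fell by 1.08 (log2; SE 0.12, adjusted p = 9.71e-12). The exact two-sided permutation test gave p = 0.259 for a mean of 313 against 268 CPM and p = 0.416 for 218 against 194 CPM. Without replicate 4 of siGATA1-1 the difference in mean CPM with that siRNA was 7.12 in place of 44.6, and the log2 fold change was 0.023. With all 16 controls in place of the dose-matched ones the effect of siGATA1-1 on BCL2L1 was 0.46 (adjusted p = 0.240, from 0.240 to 1.00 over the alternatives) and that of siGATA1-2 was -0.06.

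By group mean, BCL2L1 ran in the order siGATA1-1 (313 ± 78.9 CPM, SD, n = 4), siNC-2 at 25 nM (274 ± 54.8), siNC-1 at 25 nM (262 ± 41.8), siGATA1-2 (218 ± 15.7), siNC-1 at 6.25 nM (204 ± 74.9) and siNC-2 at 6.25 nM (184 ± 43.7). Neighbours in this order differed by less than the larger SD of the pair, except siNC-1 at 25 nM and siGATA1-2, whose means differed by a little more. The 3 groups at 25 nM stood above the 3 groups at 6.25 nM. A gene-level count does not separate the long, protective form of BCL2L1 from its short form. ABALON, an RNA gene on the opposite strand that overlaps the first exons of BCL2L1, had 129 counts in all, and the strand setting of the counting was not given in the sources used here.

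MCL1, a survival protein that binds BAK and NOXA, was not called with either siRNA. It stood at 117, 199, 183 and 125 CPM with siGATA1-1, against 64.0 to 174 CPM (median 133) in the 8 controls at 25 nM. With siGATA1-2 it was 310.4, 155, 115 and 193 CPM, against 139 to 258 CPM (median 174) at 6.25 nM. The groups overlapped at each dose, and siGATA1-2 held both the highest library of its dose and the lowest. The log2 fold changes were 0.22 (SE 0.24) and 0.09 (SE 0.25), and 0.16 (SE 0.17, adjusted p = 0.729) in the mean effect. Without replicate 1 of siGATA1-2 the second was -0.25.

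BCL2, the founding survival member, was near the limit of detection, with 20 counts in all and 0 in 12 of 24 libraries. It had 4 counts in the 8 libraries of the GATA1 siRNAs and 16 in the 16 control libraries. Of the control counts, 13 were in the 8 siNC-1 libraries and 3 in the 8 siNC-2 libraries. In a fit without the filter, over 19644 genes, its mean effect was -0.78 (95% interval -2.83 to 1.28, adjusted p = 1.00). No difference was detectable at this depth.

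**Figure D2:**
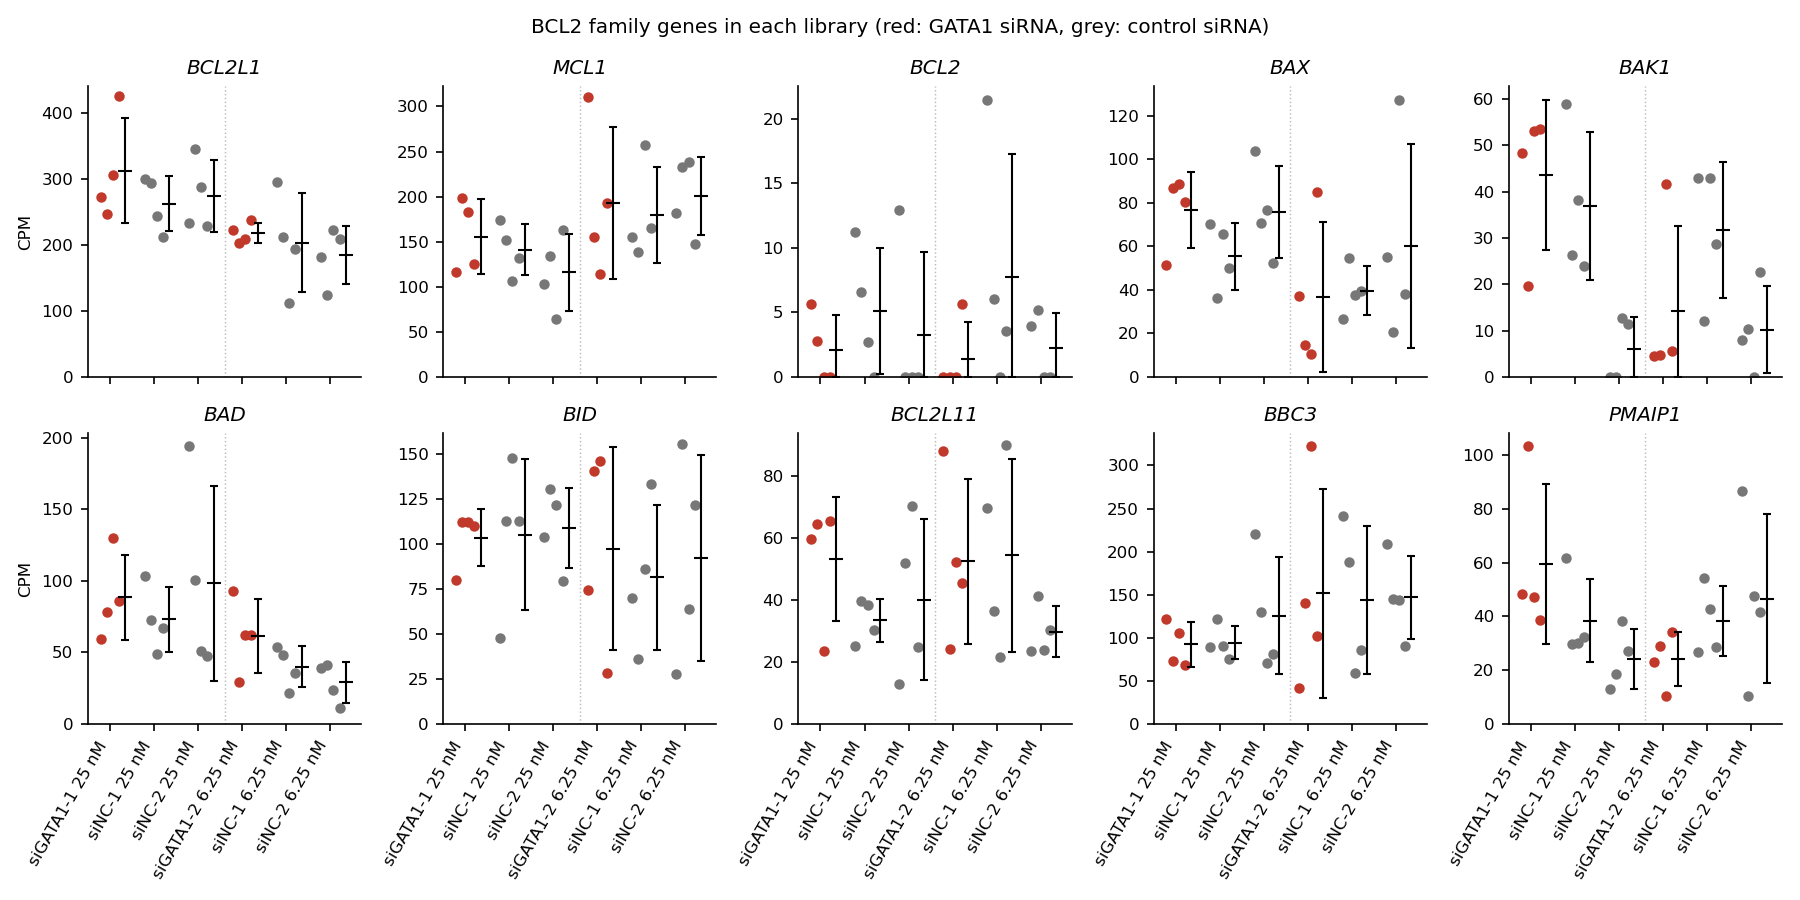
CPM (vertical, from 0) of each of the 10 members in each of the 24 libraries by group (horizontal), GATA1 siRNAs in red and control siRNAs in grey, with bars for the mean ± SD of 4 libraries and a dotted line between the doses. BCL2L1 with siGATA1-1 lies between 246 and 425 CPM and with siGATA1-2 between 203 and 238 CPM, overlapping its controls, and BAK1 is at 0 in 3 of 8 siNC-2 libraries.

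Of the effectors, BAX showed no called change. It stood at 51.2, 86.8, 88.4 and 80.3 CPM with siGATA1-1 against 36.4 to 104 CPM in the controls at 25 nM, and at 37.1, 14.5, 10.4 and 85.1 CPM with siGATA1-2 against 20.7 to 127 CPM at 6.25 nM. The siGATA1-2 libraries at 14.5 and 10.4 CPM rested on 3 and 1 counts. The log2 fold changes were 0.27 (SE 0.37) and -0.29 (SE 0.46).

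BAK1, which encodes the other effector, had the largest single estimate among the members, and that estimate differed between the control siRNAs. With siGATA1-1 it was 48.4, 19.6, 53.1 and 53.5 CPM. With siNC-1 at 25 nM it was 58.8, 26.4, 38.3 and 23.9 CPM, while siNC-2 at 25 nM gave 0, 0, 12.8 and 11.4 CPM. The siGATA1-1 libraries thus lay within or near the range of siNC-1 and above every siNC-2 library. Against both controls the log2 fold change was 1.37 (SE 0.58, unadjusted p = 0.0201, adjusted p = 0.569). Against siNC-1 alone it was 0.23 and against siNC-2 alone 2.52 (adjusted p = 0.217). With siGATA1-2, BAK1 stood at 4.63, 4.84, 41.7 and 5.68 CPM, from 1, 1, 4 and 1 counts, with a log2 fold change of -0.78 (SE 0.79, adjusted p = 0.690). It was -1.83 without replicate 3. BAK1 has pseudogenes, and the counting of shared reads was not given in the sources used here.

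Estimates for the BH3-only members had no common sign with either siRNA, and 0 of 5 were called. BAD, which binds BCL-XL and BCL2 when it is not phosphorylated, was 92.6, 29.0, 62.5 and 62.4 CPM with siGATA1-2. The controls at 6.25 nM lay at 53.7, 48.4, 21.5 and 36.0 CPM (siNC-1) and 39.5, 41.3, 23.9 and 11.4 CPM (siNC-2). Of the 4 siGATA1-2 libraries 3 were above all 8 controls and replicate 2 was among them. The log2 fold change was 0.86 (SE 0.42, 95% interval 0.02 to 1.69, unadjusted p = 0.0442, adjusted p = 0.299). It was 0.54 without replicate 1 of siGATA1-2. With siGATA1-1 it was 0.11 (SE 0.35), with 59.7 to 129.7 CPM against 47.7 to 194 CPM. Against all 16 controls the order of the siRNAs was the other way round for BAD, with 0.24 for siGATA1-2 and 0.72 for siGATA1-1, neither called.

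PMAIP1, which encodes NOXA, the partner of MCL1, was 48.4, 104, 47.2 and 38.7 CPM with siGATA1-1. The controls at 25 nM lay at 61.6, 29.7, 30.1 and 32.5 CPM (siNC-1) and 13.0, 18.6, 38.4 and 27.2 CPM (siNC-2). Replicate 2 stood above all controls and the other 3 libraries lay within their range. The log2 fold change was 0.94 (SE 0.43, unadjusted p = 0.0327, adjusted p = 0.686), and 0.51 without replicate 2. With siGATA1-2 it was -0.72 (SE 0.53, adjusted p = 0.545), from 23.2, 29.0, 10.4 and 34.1 CPM against 10.3 to 86.8 CPM.

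BCL2L11, which encodes BIM, a direct activator of the effectors, had log2 fold changes of 0.57 (SE 0.41) and 0.36 (SE 0.46), and 0.46 (SE 0.31, adjusted p = 0.482) in the mean effect. Its libraries spanned 23.6 to 65.4 CPM with siGATA1-1 and 24.2 to 88.0 CPM with siGATA1-2, where the controls spanned 13.0 to 70.4 and 21.5 to 90.0 CPM. Against siNC-1 alone the second estimate was -0.08. BID, which is cut by caspase-8 and links death receptors to mitochondria, gave -0.05 (SE 0.31) and 0.09 (SE 0.35). BBC3, which encodes PUMA, a BH3-only protein that binds the survival members, gave -0.18 (SE 0.32) and -0.06 (SE 0.33). Both genes lay inside the range of the controls in all siGATA1-1 libraries but 1 of BBC3, which was at 68.4 CPM against 70.4 CPM in the lowest control. With siGATA1-2, BBC3 spread from 41.7 to 323 CPM, a wider range than the 59.1 to 242 CPM of its controls.

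The siRNAs against GATA1 were then compared by the difference of their effects, siGATA1-2 minus siGATA1-1, in which 0 of 6738 genes were called (0%). PMAIP1 differed by -1.66 (SE 0.68, 95% interval -3.02 to -0.31, unadjusted p = 0.0168, adjusted p = 0.954) and BAK1 by -2.16 (SE 0.98, unadjusted p = 0.0297, adjusted p = 0.954). At an unadjusted p under 0.05 these were 2 of 9 members, where 4.94% of all genes were. Without replicate 2 of siGATA1-1 the difference for PMAIP1 was -1.23, and its unadjusted p was over 0.05. DESeq2 gave 2 members at an unadjusted p under 0.05 and limma voom 1.

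Among the controls, where GATA1 was not targeted, the dose of siRNA went with the only called change of a member. The controls of the 2 doses also have different replicate numbers, so dose and replicate set cannot be told apart in this comparison. BAD rose at 25 nM against 6.25 nM, with 85.8 ± 49.0 CPM against 34.5 ± 14.4 CPM (SD, n = 8 each). Its values at 25 nM were 104, 72.7, 49.2 and 67.3 CPM with siNC-1 and 194, 100.3, 51.2 and 47.7 CPM with siNC-2. The lowest of these overlapped the highest libraries at 6.25 nM, 53.7 and 48.4 CPM. The log2 fold change was 1.23 (SE 0.33, 95% interval 0.57 to 1.88, adjusted p = 0.0290 in edgeR). That was 1 of 9 members higher, where 0.683% of all tested genes were called higher and 1.41% were called in either direction. BAD, BCL2L1 and MCL1 had an unadjusted p under 0.05, as did 13.2% of all genes.

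This call was not stable, and its fit took control libraries of the same number as independent, though some of them deviated together. It was lost when 1 of 7 libraries was left out, of 24 tried: replicate 1 of siNC-1 at 25 nM, replicates 7 and 8 of siNC-1 at 6.25 nM, replicates 1 and 2 of siNC-2 at 25 nM, or replicates 7 and 8 of siNC-2 at 6.25 nM. The adjusted p ranged from 0.0134 to 0.116 over the 24 fits and was 0.0929 in limma voom. The highest library, replicate 1 of siNC-2 at 25 nM with 15 counts of BAD, was also the shallowest of the series; without it the log2 fold change was 1.03.

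The survival genes stood on opposite sides in the same comparison, neither of them called. BCL2L1 had 268 ± 45.5 CPM at 25 nM and 194 ± 57.7 CPM at 6.25 nM (log2 fold change 0.48, SE 0.17, unadjusted p = 0.00583, adjusted p = 0.146). MCL1 had 129 ± 36.1 and 189.9 ± 46.3 CPM (-0.51, SE 0.20, unadjusted p = 0.0135, adjusted p = 0.217). As a description with no test, BCL2L1 made up 67.0% ± 7.40 of the counts of the survival members BCL2L1, MCL1 and BCL2 at 25 nM and 49.5% ± 11.7 at 6.25 nM (SD, n = 8 control libraries each). The share was 66.0% ± 9.47 with siGATA1-1 and 54.4% ± 9.46 with siGATA1-2 (n = 4 each). BBC3 gave -0.48 (SE 0.26, unadjusted p = 0.0702). Of the 10 K562 markers HBG1 (-0.48) and HBG2 (-0.45), the fetal globins, were lower at 25 nM, where 1.41% of all tested genes were called in either direction. Library totals spanned 88290 to 473098 counts at 25 nM and 135533 to 293901 counts at 6.25 nM. The part of either in these differences was not tested.

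**Figure D3:**
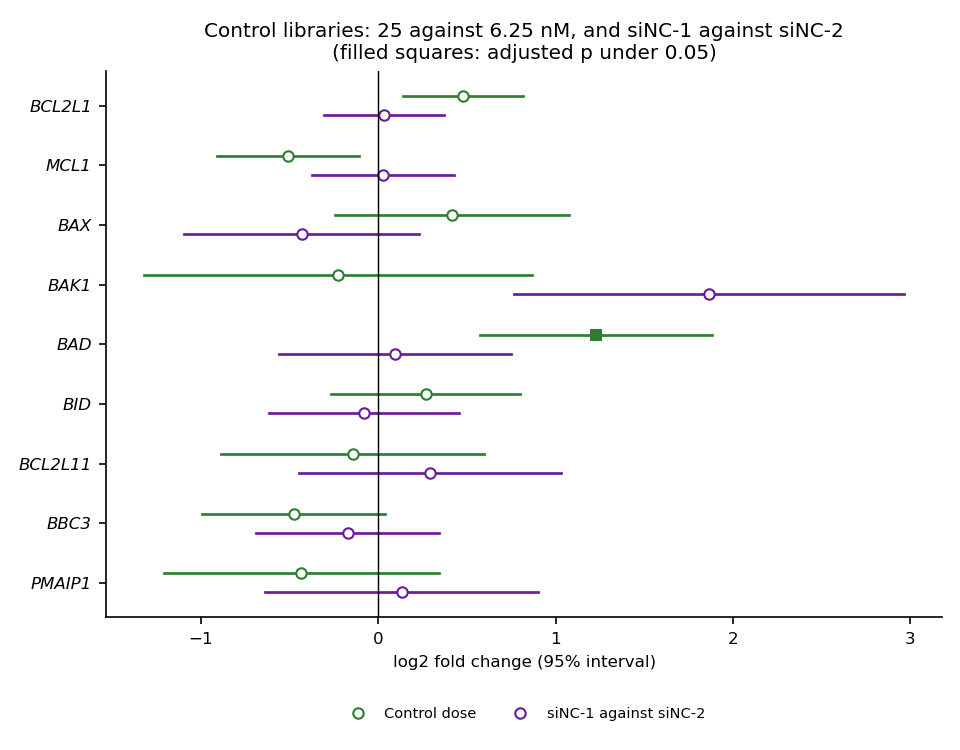
Log2 fold change (horizontal, with 95% intervals) of the 9 tested members between control libraries, 25 nM minus 6.25 nM in green and siNC-1 minus siNC-2 in purple; the filled square marks an adjusted p under 0.05. BAD with dose is the filled square at 1.23, and BAK1 between the control siRNAs is the open circle at 1.86.

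Between the non-targeting siRNAs 0 of 6738 genes were called (0%), and BAK1 was the member with an unadjusted p under 0.05, as were 2.55% of all genes. Over both doses it had 34.3 ± 14.4 CPM with siNC-1 and 8.14 ± 8.02 CPM with siNC-2 (SD, n = 8 each), from 80 and 17 counts. It was at 0 in 3 of 8 siNC-2 libraries and in 0 of 8 siNC-1 libraries. The log2 fold change was 1.86 (SE 0.55, 95% interval 0.77 to 2.96, unadjusted p = 0.00108, adjusted p = 1.00 in edgeR). At 25 nM all 4 siNC-1 libraries were above all 4 siNC-2 libraries, as were 1.59% of all tested genes; at 6.25 nM the ranges overlapped. DESeq2 and limma voom each called 0 members here and gave 1 at an unadjusted p under 0.05. BAX leaned the other way, with -0.43 (SE 0.33).

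As a description across the 24 libraries, which share groups, doses and normalization, BCL2L1 varied most alike with 5 genes among 2850 with a mean of at least 20 counts. They were CCND3, a G1 cyclin (Pearson's r of log2 CPM 0.70), PIM2, a survival kinase (0.69), EWSR1, an RNA-binding protein (0.67), TNIP1, an inhibitor of NF-κB signalling (0.66), and LYZ, lysozyme (0.64). The least alike were HSPD1, the mitochondrial chaperonin (-0.80), RPS13, a ribosomal protein (-0.76), and SMC3, a cohesin subunit (-0.72). In the same order, Spearman's rho was 0.54, 0.55, 0.51, 0.46 and 0.62 for the 5 most alike. For the least alike it was -0.82, -0.68 and -0.72. With the log2 library total Pearson's r of BCL2L1 was 0.20. Among the members r with BCL2L1 was 0.55 for BAD and -0.45 for MCL1, and the lowest r of any pair was -0.50, between BID and PMAIP1.

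Further relatives of the family were not called either. Of 13 further relatives 5 passed the filter, and 0 of these 5 were called in any of the 6 comparisons. Of all tested genes 0% to 4.48% were called, depending on the comparison, so 0 of 5 is near the background. In the mean effect BCL2L13 gave 0.42 (SE 0.23, adjusted p = 0.347), BNIP3L, a mitophagy receptor needed to clear mitochondria from red cells, 0.19 (SE 0.13), BNIP3 -0.01 (SE 0.22), BCL2L12 -0.14 (SE 0.21) and BCL2L2, which encodes BCL-W, -0.33 (SE 0.42). BCL2L10, BCL2L14 and HRK had 0 counts in all libraries, which allows up to 0.473 CPM over all counts. This limit covers counting error only.

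Downstream of the membrane, CYCS was lower. It encodes cytochrome c, the protein that BAX and BAK release and also an electron carrier of the respiratory chain. With siGATA1-2 it stood at 32.4, 102, 31.3 and 45.4 CPM, and its controls at 145, 199.6, 107 and 133 CPM (siNC-1) and 185, 207, 159 and 156 CPM (siNC-2). All 4 siGATA1-2 libraries were below all 8 controls, as were 0.994% of all tested genes. CYCS had a log2 fold change of -1.53 with siGATA1-2 (SE 0.32, adjusted p = 9.51e-04) and of -1.16 in the mean effect (SE 0.21, adjusted p = 2.46e-05). With siGATA1-1 it was -0.80 (SE 0.26, adjusted p = 0.228), from 122, 120.4, 41.3 and 107 CPM against 90.7 to 268 CPM. Leaving out any 1 library kept both calls, with adjusted p up to 0.0218 and 4.69e-04. CYCS has many processed pseudogenes, and their reads may have been split or lost in counting. Of the 10 tested genes of the apoptosome and caspases 1 fell in the mean effect, CYCS, and 9 were not called, where 4.48% of all tested genes were called; APAF1 gave 0.09 (SE 0.40) and CASP9 0.60 (SE 0.37). The list median of the mean effect was 0.13, where that of all genes was 0.00.

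**Figure D4:**
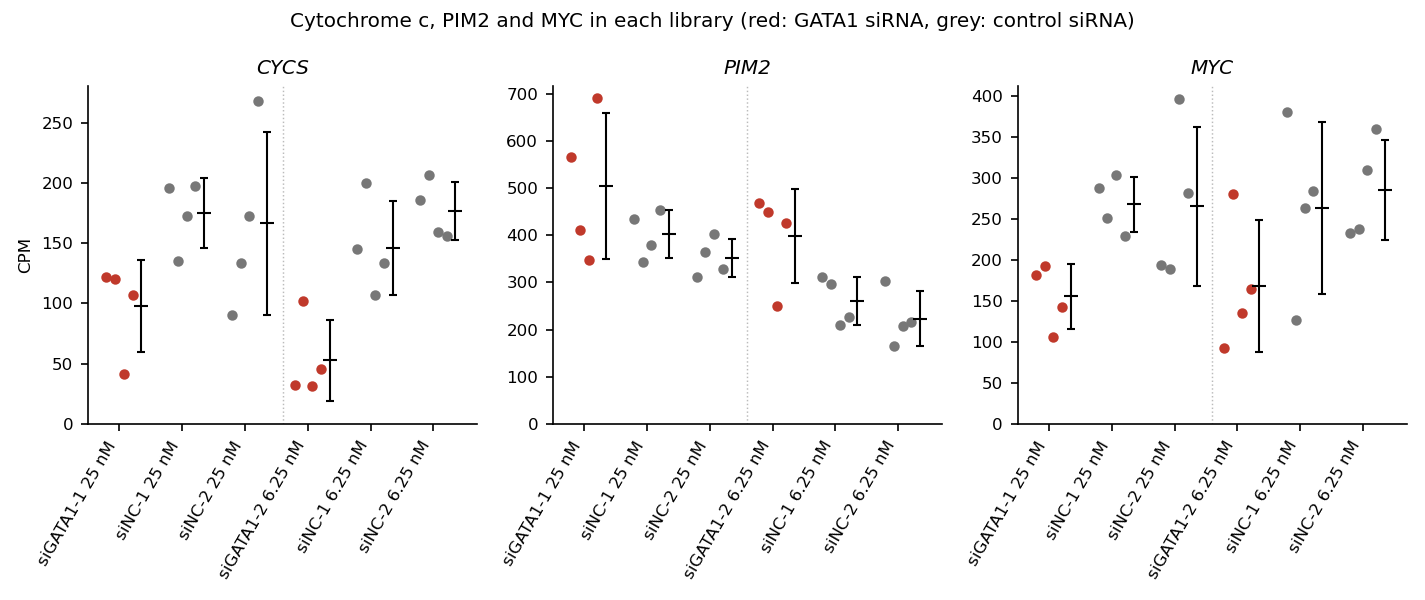
CPM (vertical, from 0) of CYCS, PIM2 and MYC in each library by group (horizontal), GATA1 siRNAs in red and control siRNAs in grey, with bars for the mean ± SD of 4 libraries and a dotted line between the doses. CYCS with siGATA1-2 lies between 31.3 and 102 CPM, below all 8 controls of its dose, while PIM2 and MYC overlap their controls at both doses.

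PIM2, a kinase known to phosphorylate BAD, was higher. With siGATA1-2 it stood at 468, 450.1, 250.1 and 426 CPM against 165 to 311 CPM in the controls at 6.25 nM, with 3 of 4 libraries above all controls. It rose by 0.75 (SE 0.18, adjusted p = 0.00616) with siGATA1-2 and by 0.59 (SE 0.12, adjusted p = 4.89e-04) in the mean effect, and gave 0.43 (SE 0.17, adjusted p = 0.417) with siGATA1-1. The call with siGATA1-2 was lost without replicate 1 of that group (0.67, adjusted p = 0.0587), against siNC-1 alone (0.65, adjusted p = 0.120) and against all 16 controls (0.43, adjusted p = 0.126). Against all 16 controls PIM2 was instead called with siGATA1-1 (0.75, adjusted p = 5.98e-04), where the adjusted p over the alternatives for that siRNA reached 1.00. PIM2 also rose with dose in the controls, by 0.64 (SE 0.15, adjusted p = 0.00674). Of 13 tested genes of turnover and phosphorylation of the members, 1 rose in the mean effect and 12 were not called, also beside 4.48%. The 14-3-3 gene YWHAE, whose protein holds phosphorylated BAD, rose with dose in the controls (0.59, SE 0.12, adjusted p = 0.00101); it was named after its values were seen.

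MYC, a transcription factor known to sensitize cells to apoptosis, fell in the mean effect (log2 fold change -0.72, SE 0.16, adjusted p = 0.00191), with -0.75 (adjusted p = 0.122) for siGATA1-1 and -0.69 (adjusted p = 0.107) for siGATA1-2. For siGATA1-1, MYC was called in a fit of only the groups compared (-0.73, adjusted p = 0.0292), with the replicate number as a block (-0.71, adjusted p = 0.0480) and against all 16 controls (-0.77, adjusted p = 0.0277), and the adjusted p over the alternatives reached 0.403. For siGATA1-2 it was called without replicate 2 of that group (-1.09, adjusted p = 0.00876) and without replicate 6 of siNC-1 at 6.25 nM (-0.78, adjusted p = 0.0474). With siGATA1-1 it stood at 182, 193, 106 and 143 CPM against 189.5 to 397 CPM, and with siGATA1-2 at 92.6, 281, 135 and 165 CPM against 127 to 381 CPM. Of 8 tested genes for transcription factors and pathways that act on the members, 1 fell in the mean effect and 7 were not called, beside the same 4.48%; STAT5A and STAT5B, which carry the BCR-ABL1 signal to BCL2L1, gave -0.05 (SE 0.18) and -0.04 (SE 0.17). None of 6 tested inhibitors of apoptosis and their antagonists and none of 7 mitochondrial partners were called in the mean effect by edgeR, with 0 genes of either list at an unadjusted p under 0.05; BIRC5, which encodes survivin, gave -0.14 (SE 0.15) and XIAP 0.03 (SE 0.36).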

How the data were processed

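The authors deposited 1 table of raw counts, whole numbers of reads per gene symbol in 24 libraries, per the file header. Reads were aligned with STAR 2.5.6b to hg19, per the submitters' processing notes; the counter, annotation, strand setting and any use of molecular identifiers: not given in the sources used here. Totals were 88290 to 473098 counts per library. All libraries entered 1 fit with a mean per group (edgeR 4.0.16, R 4.3.3, limma 3.58.1; filterByExpr with a minimum count of 10, TMM, robust quasi-likelihood), over 6738 genes with 93.7% of the counts. P-values were adjusted by Benjamini-Hochberg over these genes, with a threshold of 0.05. Permutation tests used scipy 1.17.1. The code was tested on simulated data. The 36 replicate pairs were checked, and 0 were identical. Alternatives were other filters, DESeq2 1.42.0, limma voom, total counts alone, other control sets and leaving out each library.

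The members and all lists were chosen with earlier results of these data known. Named were all 10 members, GATA1, the members of the other lists (further BCL2 relatives, apoptosome and caspases, inhibitors of apoptosis, mitochondrial partners, turnover and phosphorylation, transcription) called with either siRNA or in the mean effect, and the 5 genes most and 3 least alike BCL2L1. KLF1 and genes not called were named beside them as context. Markers were those of K562, lymphoid, monocyte and fibroblast cells.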

Additional observations from a re-analysis of the deposited data

Results flagged for a closer look

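In 8 of 60 groups of 4 libraries (10 members in 6 groups) 1 library lay far from the other 3, with a gap to the nearest of them above Dixon's 95% limit. Chance gives about 1 in 20 for normally distributed values. That rate need not hold for low counts, so 8 of 60 is not read as an excess. For BAK1, replicate 2 of siGATA1-1 was low at 19.6 CPM (7 counts), where the others were 48.4 to 53.5 CPM. Replicate 3 of siGATA1-2 was high at 41.7 CPM, from 4 counts, where the others were 4.63 to 5.68 CPM. For PMAIP1, replicate 2 of siGATA1-1 was high at 104 CPM (37 counts) against 38.7 to 48.4 CPM, and replicate 1 of siNC-1 at 25 nM was high at 61.6 CPM against 29.7 to 32.5 CPM. BCL2L11 was low in replicate 3 of siGATA1-1, at 23.6 CPM from 4 counts against 59.7 to 65.4 CPM. BID was low in replicate 1 of siGATA1-1, at 79.7 CPM against 110.0 to 112 CPM. BCL2 was at 5.68 CPM in replicate 4 of siGATA1-2 and at 13.0 CPM in replicate 1 of siNC-2 at 25 nM, from 1 count each, with the other 3 libraries of either group at 0. A group with 1 count in 1 library and 0 in the other 3 always passes this limit.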

How the results depend on the processing

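Log2 differences follow unless stated. The count of called members was 0 with siGATA1-1, with siGATA1-2, in the mean effect, in the difference of the siRNAs and between control siRNAs under all 34, 33, 32, 29 and 30 alternatives run. For control dose it was 1, but 0 with DESeq2, which gave BAD and 4 other members no adjusted p, and 0 with limma voom; leaving out 1 library gave 0 to 1. Of 454 values under other alternatives, 429 kept direction and call, 3 lost a call, 4 gained one and 18 changed sign, of which 0 belonged to a called result (calls lost or gained were those of BAD, PIM2 and MYC). With DESeq2, BBC3 was 0.011 with siGATA1-2. With total counts alone, BAX was 0.012 in the mean effect. With limma voom, BID was 0.021 with siGATA1-1 and 0.016 between control siRNAs, and in the difference of the siRNAs BCL2L1 was 0.024, BID -0.015 and BBC3 -0.22. Against siNC-1 alone, BCL2L11 was -0.084 with siGATA1-2, and BAX was 0.21 and BAK1 -0.64 in the mean effect. Against siNC-2 alone, BAD was -0.018 with siGATA1-1 and BID -0.019 in the mean effect. Against all 16 controls, MCL1 was -0.030 and BID 0.086 with siGATA1-1, and BCL2L1 was -0.059, BID -0.044 and BBC3 0.18 with siGATA1-2. The cause was not tested.

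Leaving out 1 library at a time gave 1512 values, of which 74 changed sign, 0 of them of a called result. For siGATA1-1 the results concerned ran from -0.096 to 0.31 (BAD) and from -0.17 to 0.066 (BID). For siGATA1-2 they ran from -0.25 to 0.24 (MCL1), -1.04 to 0.020 (BAX), -0.22 to 0.40 (BID), -0.071 to 0.62 (BCL2L11) and -0.60 to 0.29 (BBC3). In the mean effect they ran from -0.013 to 0.23 (MCL1), -0.39 to 0.15 (BAX), -0.23 to 0.48 (BAK1), -0.13 to 0.18 (BID), -0.39 to 0.058 (BBC3) and -0.10 to 0.24 (PMAIP1). In the difference of the siRNAs they ran from -0.13 to 0.16 (BCL2L1), -0.47 to 0.027 (MCL1), -0.18 to 0.45 (BID), -0.63 to 0.057 (BCL2L11) and -0.43 to 0.47 (BBC3). For control dose they ran from -0.58 to 0.13 (BAK1) and -0.30 to 0.055 (BCL2L11). Between control siRNAs they ran from -0.080 to 0.13 (BCL2L1), -0.082 to 0.15 (MCL1), -0.061 to 0.29 (BAD), -0.27 to 0.098 (BID) and -0.031 to 0.41 (PMAIP1).

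Of 16 same-numbered pairs at one dose 4 had a correlation of deviations over 0.1. These 4 were among the 8 pairs of siNC-1 with siNC-2 (median 0.108). Of 24 such pairs with different numbers 2 were over 0.1 (median -0.0488). Of the 8 same-numbered pairs of siGATA1-1 with a control 0 were over 0.1 (median -0.0222). Of 56 pairs of a GATA1 siRNA with a control of another number 4 were. Control libraries of the same number thus deviated together more often than other control pairs. The pairs at 0.302 (number 4) and 0.258 (number 8) joined the deepest libraries of their groups. Replicate 2 of siNC-1 and replicate 1 of siNC-2 at 25 nM, the shallowest of their groups, reached 0.291. The same-numbered pairs at 0.167 and 0.165 were not matched in this way. The part of depth was not tested. The main fit and the permutation tests did not take the numbers as pairs, so their p-values treat these controls as independent. Not every library correlated best with its own number. With the number as a replicate block, which could be fitted for siGATA1-1 and between control siRNAs, 53 genes were called higher and 27 lower with siGATA1-1, in place of 26 and 23, and 0 between control siRNAs. Members called stayed at 0, MYC gained a call with siGATA1-1 (adjusted p = 0.0480 in edgeR), and BID was 0.044 with siGATA1-1. No paired analysis was possible for siGATA1-2 because its replicate numbers are not those of its controls.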
